A study of Mus musculus with 12 samples.

Results

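Smooth muscle cells of the arterial wall carry a set of genes for contraction, and 10 of them are described here: Acta2, Myh11, Tagln, Cnn1, Smtn, Lmod1, Mylk, Myl9, Myocd and Synpo2. Members were chosen by name, as all non-control probes whose gene name on the array was one of the 10. That gave 14 of 55681 probes and 10 of 34797 gene names. Smtn and Mylk had 2 probes each, Synpo2 had 3, and the other genes had 1, which for Acta2 was printed on 10 spots. All 14 probes were well above background on all 12 arrays, none was saturated, and all 10 genes were tested among 20026 genes.

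RNA was measured in a segment of aorta, cut from above the right renal artery, of male C57BL/6J mice, aged 11 to 14 weeks, with 1 array for each of 12 mice on day 3 of treatment. To induce aortic dissection (AD), mice were infused with 2 agents, BAPN (beta-aminopropionitrile, an inhibitor of collagen crosslinking) at 150 mg/kg/day and AngII (angiotensin II, a vasoconstrictor peptide) at 1 µg/kg/min. The mTOR kinase inhibitor rapamycin was injected once daily (2 mg/kg/day), dissolved in dimethylsulfoxide (DMSO). The 4 groups of 3 mice received DMSO alone, rapamycin alone, DMSO during the challenge with both AD agents (BA+DMSO), or rapamycin during it (BA+rapamycin). By the treatment labels, all mice thus received DMSO, and no group was left without injection. Whether the unchallenged mice carried pumps is not given in the sources used here. Sample titles of the DMSO group start with Pre, although DMSO is the treatment given, so that the injection of these mice rests on the label.

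In a smooth muscle cell, myosin pulls on actin filaments after its light chain has been phosphorylated by a kinase that calcium and calmodulin switch on. The genes for this machinery are largely transcribed together through serum response factor (SRF), which binds a short DNA element called the CArG box, and myocardin, which binds SRF and activates it. Loss of their expression is the classical sign of a smooth muscle cell that leaves its contractile state, and mutations in several of them cause heritable thoracic aortic dissection in people.

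The CArG boxes are shown for the members that had one in the RefSeq promoter table (GRCm38.p6), because they are the elements through which SRF and myocardin act. The table held 7 of the 10 members and did not list Myh11, Tagln or Myocd. In the 250 bases before the listed start, both strands were searched for the CArG box, for a CArG-like box in which exactly 1 of the 6 central bases is not A or T, and for the MCAT element CATTCC. The CArG-like box was counted apart from the CArG box, so that the matches do not overlap. Capitals mark the boxes and, in Acta2, the MCAT element, which lies on the other strand and is printed as its reverse complement.
Acta2 (chr19:34255374-34255623, minus strand): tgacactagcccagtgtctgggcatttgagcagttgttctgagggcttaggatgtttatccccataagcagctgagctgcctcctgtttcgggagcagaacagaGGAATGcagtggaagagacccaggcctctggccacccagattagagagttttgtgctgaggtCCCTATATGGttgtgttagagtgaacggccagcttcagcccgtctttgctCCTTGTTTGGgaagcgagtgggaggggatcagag
Myl9 (chr2:156775214-156775463, plus strand): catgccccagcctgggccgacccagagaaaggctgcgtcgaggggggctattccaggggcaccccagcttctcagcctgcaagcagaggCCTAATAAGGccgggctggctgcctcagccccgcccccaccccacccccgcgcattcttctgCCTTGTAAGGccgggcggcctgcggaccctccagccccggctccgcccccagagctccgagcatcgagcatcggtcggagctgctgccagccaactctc
Acta2 had CArG-like boxes that began 84 and 34 bases before the start. Myl9 had a CArG box 161 bases before the start and a CArG-like box 99 bases before it. Over all 32851 promoters of the table, 1.47% held a CArG box, 7.24% a CArG-like box and 12.6% an MCAT element. Cnn1, Smtn, Lmod1, Mylk and Synpo2 had neither kind of box in this window, and an MCAT element was found in Acta2, Smtn, Lmod1 and Mylk. A match is a description of letters and not a binding site.

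Values are log2 processed signal minus the 75th percentile of the array, so a value of 0 is a signal at that percentile. A brighter probe does not show a more abundant transcript, so ranks of probes and sums over probes describe signal on the array and not transcript levels. That percentile, which shows how bright an array was, stood in intensity at 221 to 280 in DMSO, 257 to 337 in rapamycin, and lower in the challenged groups, at 78.1 to 246 (BA+DMSO) and 74.6 to 109 (BA+rapamycin). Correlations between arrays of a group, across probes, were 0.987 to 0.993 in DMSO and rapamycin, lower in BA+rapamycin (0.974 to 0.982) and lowest in BA+DMSO (0.912 to 0.961). Slide 1 held the DMSO mice and rapamycin mouse 1, and slide 2 held the challenged mice and rapamycin mice 2 and 3. The challenge and the slide therefore cannot be told apart within BA+DMSO and DMSO. The titles of 10 samples hold a date-like number that some mice of different groups share, as DMSO mice 2 and 3 do with rapamycin mice 2 and 3, and BA+DMSO mouse 1 with BA+rapamycin mouse 1. What it dates is not given in the sources used here. Aortic RNA comes from a mixture of cells, in which fewer smooth muscle cells and less RNA per cell cannot be told apart.

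Of the contractile genes, Synpo2 and Lmod1 were lower in BA+DMSO than in DMSO, and the other 8 did not pass the test. Across the 10 genes the median log2 difference between BA+DMSO and DMSO was -0.58, against -0.023 over all genes, and 7 of 10 were negative. The 2 genes called, both lower, compare with 21.4% of all genes called in either direction and 11.0% called lower. Groups did not overlap for Smtn, Lmod1 and Synpo2, each lower, and 20.1% of all genes were lower without overlap. Tests were made with limma over all 12 arrays, with Benjamini-Hochberg adjustment over all tested probes. Without BA+DMSO mouse 2, 6 members were called, beside 28.4% of all genes in that fit. With slide as a fixed block, where the slide effect is set by rapamycin mouse 1 against rapamycin mice 2 and 3, 0 members and 12 genes in all were called, with Synpo2 at -2.72 (adjusted p = 0.186) and Lmod1 at -2.03 (adjusted p = 0.237).

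**Figure D1:**
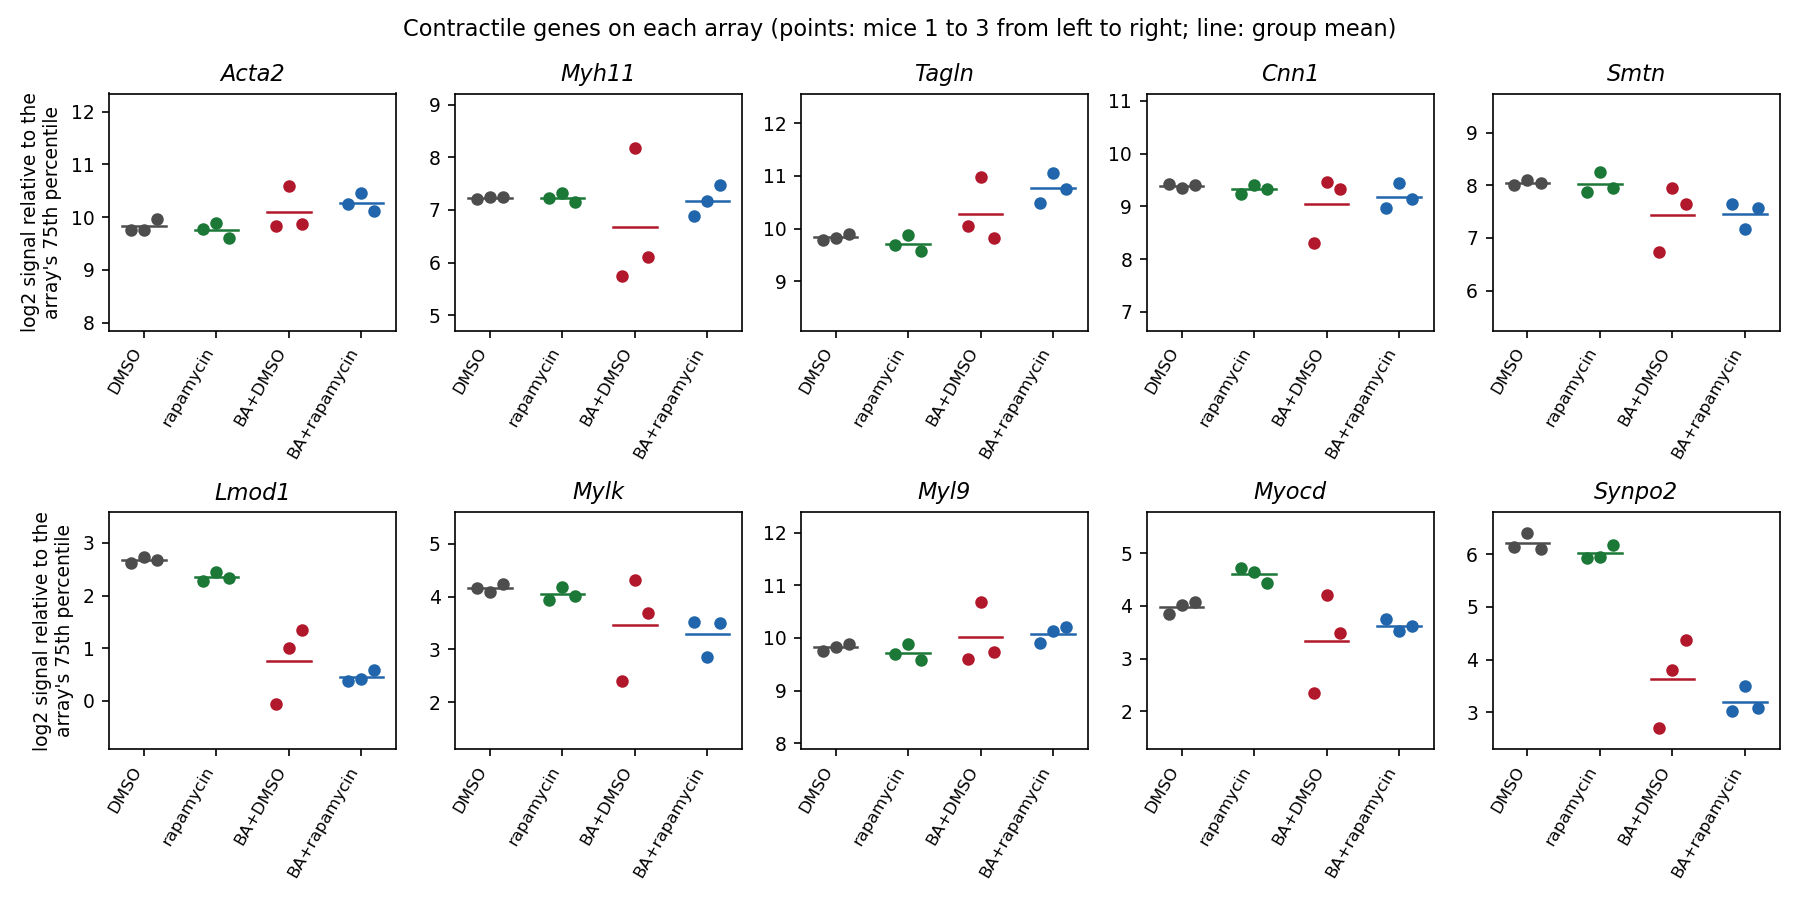
Log2 signal relative to the 75th percentile of the array for the 10 contractile genes on each of the 12 arrays, with 1 point per mouse, a line at the group mean and an axis of the same length for every gene. Synpo2 and Lmod1 lie below every DMSO array on all 6 challenged arrays, and Myh11 spreads most in BA+DMSO.

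Among proteins bound to the actin filament, Synpo2, a Z-disc and dense-body protein also called myopodin, changed most. Synpo2 was 6.13, 6.4 and 6.10 in DMSO and 2.70, 3.80 and 4.37 in BA+DMSO. Every BA+DMSO array lay below the lowest DMSO array. The difference was -2.58 (SE 0.34, 95% interval -3.34 to -1.83, adjusted p = 0.000955), which is 16.7% of the DMSO level. A second Synpo2 probe fell by 2.02 (adjusted p = 0.00278), and the third differed by -0.90 (SE 0.56, adjusted p = 0.272). The probes lie on the minus strand of chromosome 3 of build mm9, the first at chr3:122779459-122779518 and the third at chr3:122815498-122815557.

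Lmod1, leiomodin 1, which nucleates actin filaments in smooth muscle, was 2.62, 2.73 and 2.67 in DMSO and -0.06, 1.01 and 1.35 in BA+DMSO. The groups did not overlap. Its difference was -1.91 (SE 0.29, 95% interval -2.55 to -1.27, adjusted p = 0.0019), or 26.6% of the DMSO level. The probe lies on chromosome 1 of mm9, from 137264581 to 137264640.

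Smtn, smoothelin, which binds actin filaments in contractile smooth muscle only, had probes that pointed in opposite directions. The probe that stands for the gene, chosen as the tested probe with the highest mean (chr11:3417530-3417589), was 8.0, 8.09 and 8.05 in DMSO and 6.73, 7.94 and 7.65 in BA+DMSO, which differed by -0.61 (SE 0.28, adjusted p = 0.147). The second probe (chr11:3420834-3420893) was 2.96, 3.18 and 3.41 in DMSO and 3.81, 5.25 and 3.71 in BA+DMSO, which differed by 1.07 (SE 0.35, adjusted p = 0.0527). Both probes separated the groups without overlap, the first downwards and the second upwards. Smtn is known to give more than 1 transcript, and which of them each probe reads was not tested.

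Acta2, smooth muscle alpha-actin, and Tagln, the actin-binding transgelin or SM22-alpha, did not pass the test, and the sign of their differences depended on the scaling, as given with the array brightness. Acta2 was 9.75, 9.76 and 9.97 in DMSO and 9.84, 10.59 and 9.86 in BA+DMSO, which differed by 0.27 (SE 0.21, 95% interval -0.20 to 0.74, adjusted p = 0.402). Tagln was 9.79, 9.83 and 9.90 in DMSO and 10.05, 10.99 and 9.82 in BA+DMSO, which differed by 0.45 (SE 0.28, 95% interval -0.16 to 1.05, adjusted p = 0.272). In both genes BA+DMSO mouse 2 stood apart above the others.

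Cnn1, calponin 1, an actin-bound inhibitor of myosin, was 9.42, 9.35 and 9.40 in DMSO and 8.31, 9.47 and 9.33 in BA+DMSO. Only BA+DMSO mouse 1 lay below the DMSO range by more than 0.1, and the difference was -0.35 (SE 0.27, adjusted p = 0.375).

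Among genes of myosin and its switch, Myh11, the smooth muscle myosin heavy chain, was the most variable. Myh11 was 7.20, 7.25 and 7.25 in DMSO and 5.75, 8.17 and 6.10 in BA+DMSO. Mice 1 and 3 lay far below DMSO and mouse 2 above it, so that the difference of -0.56 (SE 0.49, 95% interval -1.63 to 0.51, adjusted p = 0.437) was smaller than the SD of 1.31 within BA+DMSO. Myl9, the regulatory light chain that is phosphorylated, was 9.76, 9.83 and 9.89 in DMSO and 9.61, 10.69 and 9.74 in BA+DMSO (difference 0.19, SE 0.25, adjusted p = 0.634).

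Mylk, the kinase that phosphorylates this light chain, was 4.16, 4.09 and 4.24 in DMSO and 2.39, 4.32 and 3.69 in BA+DMSO, again with mouse 2 highest. The difference was -0.69 (SE 0.39, adjusted p = 0.232). The probe that stands for Mylk lies at chr16:35001266-35001325, and a second probe at chr16:34953958-34954017 differed by 0.33 (SE 0.43, adjusted p = 0.625). Myocd, myocardin, was 3.84, 4.01 and 4.08 in DMSO and 2.34, 4.20 and 3.48 in BA+DMSO, with a difference of -0.63 (SE 0.36, adjusted p = 0.232).

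**Figure D2:**
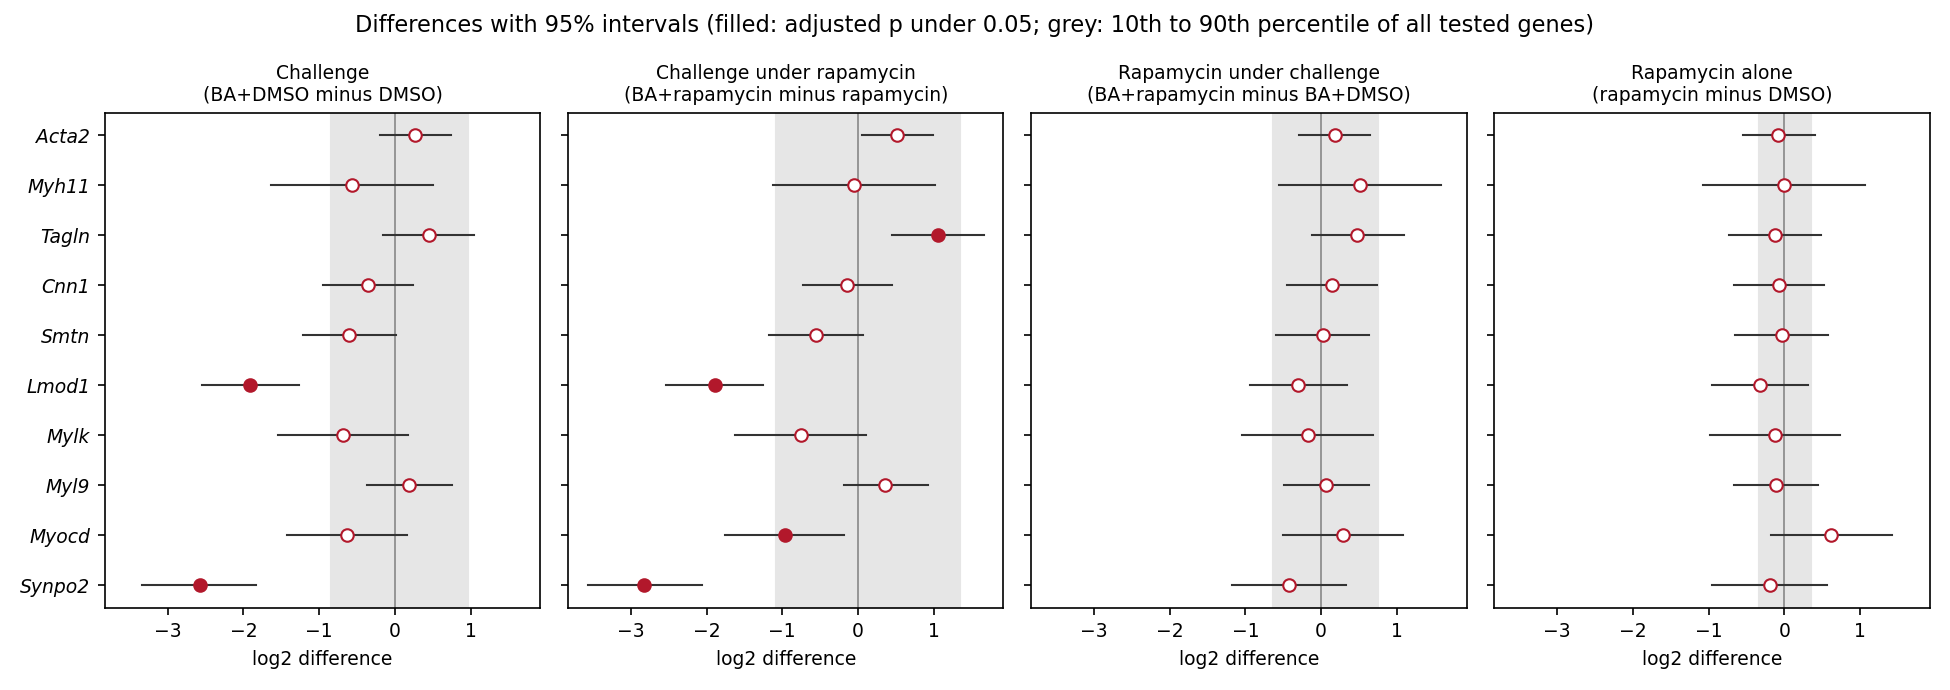
Log2 differences of the 10 genes with 95% intervals in 4 comparisons, filled where the adjusted p was under 0.05, over a grey band from the 10th to the 90th percentile of all tested genes. Synpo2 and Lmod1 lie left of the band in both challenge comparisons, at -2.58 and -1.91 without rapamycin and at -2.82 and -1.89 with it, and no gene is filled in the rapamycin comparisons.

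The 3 BA+DMSO mice differed from each other more than the other groups did, and they did so in the same direction for most members. Averaged over the 10 genes, the difference from the DMSO mean was -1.35, -0.00 and -0.58 in BA+DMSO mice 1, 2 and 3, and -0.64, -0.55 and -0.51 in BA+rapamycin. After each gene was centred on its group means, all 45 pairs of members correlated positively over the 12 arrays, from 0.0636 between Tagln and Synpo2 to 0.977 between Myh11 and Myl9, with a median of 0.705. Each array has 1 scaling for all genes and the spread was widest in BA+DMSO, so these coefficients are a description. Without BA+DMSO mouse 2, the challenge lowered Myh11 (-1.31, adjusted p = 0.0012), Smtn (-0.86, 0.0354), Mylk (-1.12, 0.0351) and Myocd (-1.07, 0.0201) in addition to Synpo2 (-2.67, 0.00162) and Lmod1 (-2.03, 0.0022). Those 6 of 10 compare with 28.4% of all genes called in that fit. Acta2 and Tagln were not called there either (0.02 and 0.09).

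**Figure D3:**
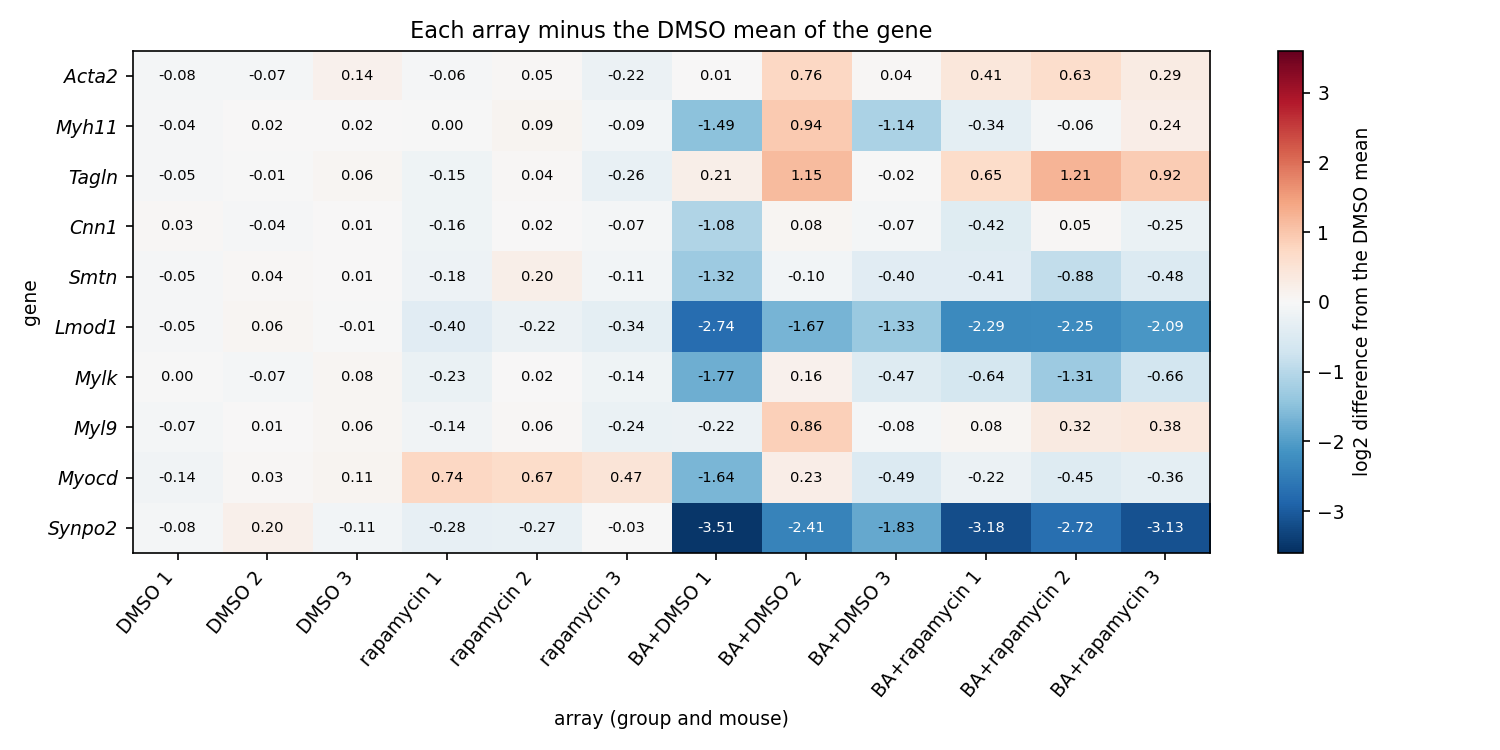
Log2 difference of each array from the DMSO mean of the gene, with genes in rows and the 12 arrays in columns. BA+DMSO mouse 1 is blue, that is lower, in all rows but Acta2 (0.01) and Tagln (0.21). Among the BA+DMSO mice, mouse 2 is reddest for Acta2 (0.76), Myh11 (0.94), Tagln (1.15) and Myl9 (0.86). Synpo2 and Lmod1 are blue on all 6 challenged arrays.

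Acta2, Tagln and Myl9 were among the brightest probes of the array, and their values moved with array brightness. On every DMSO and rapamycin array, these 3 genes ranked 2 to 7 among all probes and reached 78.4% to 91.3% of the array's brightest probe. In BA+rapamycin they reached 54.0% to 65.4% for Tagln, 37.8% to 45.5% for Acta2 and 30.4% to 44.4% for Myl9. The spread over the spots of the Acta2 probe, in log2 units, was 0.126 to 0.154 on DMSO and rapamycin arrays and on BA+DMSO mouse 3, and 0.0198 to 0.0483 on the 5 other arrays. Before scaling, the intensity of Acta2 was 241000, 232000 and 222000 in DMSO and 121000, 120000 and 230000 in BA+DMSO. It was 225000, 256000 and 262000 in rapamycin and 132000, 105000 and 120000 in BA+rapamycin. The unscaled signal was thus lower on 5 of the 6 challenged arrays than on any unchallenged array, whereas the scaled values were not.

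Other genes of the same brightness behaved alike. Of the 65 genes with a DMSO intensity of at least 100000, which include Acta2, Tagln, Myl9 and Cnn1, 75.4% were higher in BA+DMSO than in DMSO after scaling, with a median of 0.39. In the 3209 genes between 1000 and 3000, the bin of Lmod1, the median was -0.21, and in the 946 genes between 10000 and 30000, the bin of Synpo2, it was -0.01. Quantile normalization, which gives all arrays one distribution of values, turned the differences of Acta2 (-0.34, adjusted p = 0.188), Tagln (-0.26, 0.234) and Myl9 (-0.43, 0.113) below 0 without a call. Synpo2 (-2.75) and Lmod1 (-1.84) kept their differences and calls, and Smtn was then called lower (-1.02, adjusted p = 0.0295). The direction of Acta2, Tagln and Myl9 under challenge therefore depends on the scaling. In BA+DMSO against DMSO, none of them was called in 25 alternatives, which included array brightness as a covariate. The cause of the change in direction was not tested.

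**Figure D4:**
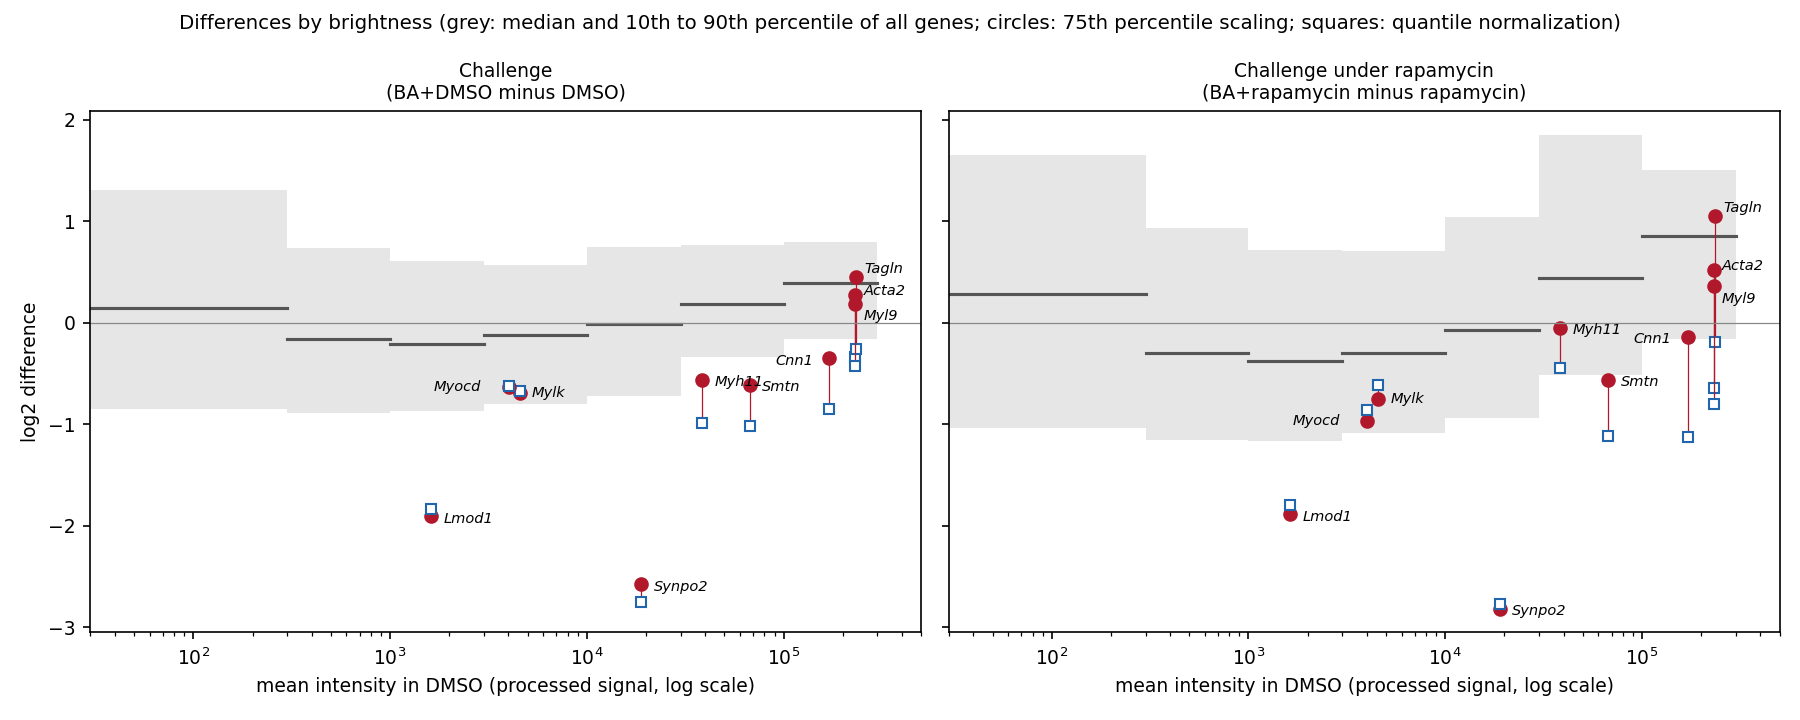
Log2 difference against the mean DMSO intensity of the gene on a log axis, with the median (line) and the 10th to 90th percentile (grey) of all genes in bins of brightness, circles for the 10 genes under the 75th percentile scaling and squares for the same genes after quantile normalization. Squares lie below circles for the 6 brightest members, and close to them for Lmod1, Mylk, Myocd and Synpo2.

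With rapamycin present, the challenge was read between BA+rapamycin and rapamycin, groups that did not vary as much. Synpo2, Lmod1 and Myocd were called lower and Tagln higher, 4 of 10 genes against 42.7% of all genes, and 3 lower and 1 higher against 22.9% and 19.8%. Without overlap between groups, 5 genes were lower (Smtn, Lmod1, Mylk, Myocd and Synpo2) and 3 higher (Acta2, Tagln and Myl9), where 36.6% of all genes were lower and 31.2% higher. The median over the 10 genes was -0.35.

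Synpo2 was 5.93, 5.94 and 6.18 in rapamycin and 3.03, 3.49 and 3.08 in BA+rapamycin, a difference of -2.82 (SE 0.34, adjusted p = 0.000385). Lmod1 was 2.27, 2.45 and 2.33 in rapamycin and 0.38, 0.42 and 0.58 in BA+rapamycin, a difference of -1.89 (SE 0.29, adjusted p = 0.0012). On the arrays of slide 2 alone, where rapamycin mice 2 and 3 lie beside BA+rapamycin, these differences were -2.86 (adjusted p = 0.0137) and -1.93 (adjusted p = 0.0276). The fall of both genes was thus as large within 1 slide.

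Myocd was 4.72, 4.64 and 4.44 in rapamycin and 3.75, 3.52 and 3.61 in BA+rapamycin, a difference of -0.97 (SE 0.36, adjusted p = 0.0495), and within slide 2 it was -0.91 (adjusted p = 0.192). With the number in the titles as a random block it was -0.75 (adjusted p = 0.126). Tagln was 9.69, 9.88 and 9.58 in rapamycin and 10.49, 11.05 and 10.76 in BA+rapamycin, a difference of 1.05 (SE 0.28, adjusted p = 0.013). The higher Tagln turned to -0.19 after quantile normalization and to -0.02 with array brightness as a covariate, and the median over the 65 brightest genes was 0.86. Acta2 (0.52, SE 0.21, adjusted p = 0.0707) and Myl9 (0.36, SE 0.25, adjusted p = 0.259) lay below that median. Both were called lower after quantile normalization, at -0.64 (adjusted p = 0.0151) and -0.80 (adjusted p = 0.0071). Without BA+DMSO mouse 2, which is in neither group, both were called higher, at 0.52 (adjusted p = 0.00836) and 0.36 (adjusted p = 0.0345). Tagln was no longer called without rapamycin mouse 3 or without BA+rapamycin mouse 2, and Myocd kept its call in 8 of 26 alternatives.

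Myh11 was 7.23, 7.32 and 7.15 in rapamycin and 6.89, 7.18 and 7.47 in BA+rapamycin (difference -0.05, SE 0.49, adjusted p = 0.938). The groups overlapped. Cnn1 differed by -0.14 (SE 0.27), Smtn by -0.56 (SE 0.28) and Mylk by -0.75 (SE 0.39), none called. After quantile normalization Cnn1 (-1.13, adjusted p = 0.0128) and Smtn (-1.12, 0.0111) were called lower, and after normexp background correction Smtn (-1.01, 0.00858) and Mylk (-1.13, 0.0146) were. The second Smtn probe rose by 1.44 (SE 0.35, adjusted p = 0.00955), opposite in sign to the first, and the second Mylk probe differed by 0.76 (SE 0.43, adjusted p = 0.169).

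Rapamycin in challenged mice, BA+rapamycin against BA+DMSO, was the comparison that asks whether the mTOR inhibitor altered the response of the contractile genes. No member was called by limma, none had an unadjusted p under 0.05, and the smallest adjusted p was 0.317, for Tagln. Over all genes 0.305% were called. The median over the 10 genes was 0.11, and the ranges of the groups overlapped for all 10 members. Synpo2 (-0.43, 95% interval -1.18 to 0.33) and Lmod1 (-0.30, -0.94 to 0.34), the genes that fell, were no nearer to DMSO with rapamycin. Myh11 differed by 0.51 with an interval of -0.56 to 1.58, which is wide for 3 mice a group. This comparison shares the BA+DMSO mice with that of BA+DMSO and DMSO.

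The lack of calls, among members as over all genes, rested on BA+DMSO mouse 2. Without it, 4 members were called higher in BA+rapamycin: Myh11 (1.26, adjusted p = 0.00262), Tagln (0.83, 0.00791), Acta2 (0.42, 0.046) and Myl9 (0.41, 0.0468). No member was called lower. Of all genes, 41.0% were then called in either direction, where 0.305% were called with that mouse, so the members changed as the array did. Synpo2 (-0.34) and Lmod1 (-0.18) remained negative and were not called. Leaving out any other single array gave no call of a member. Of these 4 genes, 3 are those near the brightest signal of the array.

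Rapamycin alone left the contractile genes close to DMSO. No member was called by limma and none had an unadjusted p under 0.05, with 0.00499% of all genes called. The median over the 10 genes was -0.09. Myocd was the member that moved most, at 3.84, 4.01 and 4.08 in DMSO and 4.72, 4.64 and 4.44 in rapamycin, a difference of 0.62 (SE 0.36, 95% interval -0.17 to 1.42, adjusted p = 1). Its groups did not overlap, as held for 10.6% of all genes in that direction, and on slide 1 alone rapamycin mouse 1 was above all DMSO mice. Among the mice that share a number in their titles, rapamycin mice 2 and 3 (4.64 and 4.44) were likewise above DMSO mice 2 and 3 (4.01 and 4.08). Lmod1 was lower without overlap (-0.32, SE 0.29), as were 11.8% of all genes. The other 8 members differed by -0.19 to 0.00, with Myh11 at -0.00 (95% interval -1.07 to 1.07).

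The interaction, rapamycin under challenge minus rapamycin alone, gave no call for a member or for any other gene (0%), and no member had an unadjusted p under 0.05 by limma. Differences ranged from -0.34 for Myocd (SE 0.51) to 0.60 for Tagln (SE 0.39). Without BA+DMSO mouse 2, Myh11 and Tagln were called, with 11.2% of all genes.

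Lists of 3 kinds of related genes were written beside the members, with results of these data known. In the contractile apparatus list, which holds other filament, Z-disc and adhesion proteins, the challenge lowered 11 of 28 genes and raised 1, with a median of -0.63. Over all genes 11.0% were called lower and 10.4% higher in this comparison. The largest falls were Filip1l (-2.10, adjusted p = 0.00307), which binds filamin, Tpm1 (-1.41, 0.0207), a tropomyosin that lies along actin, Pdlim3 (-1.38, 0.01), an alpha-actinin binding protein, and Svil (-1.24, 0.00358), supervillin. Palld, palladin, was the gene that rose (0.73, 0.00873). Under rapamycin the challenge lowered 13 and raised 2, where 22.9% of all genes were called lower and 19.8% higher, led by Filip1l (-2.27, adjusted p = 0.00128), Des (-1.79, 0.00999), Svil (-1.74, 0.000412) and Pdlim3 (-1.74, 0.00197).

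The second list holds genes that set myosin phosphorylation and calcium. Of 17 tested genes of 18, with Cacna1c not tested, the challenge lowered 10 and raised 1, beside 11.0% and 10.4% of all genes, with a median of -1.09. Atp2a2, the calcium pump of the sarcoplasmic reticulum (-1.75, adjusted p = 0.00307), Kcnma1, a calcium-activated potassium channel (-1.75, 0.00989), and Prkg1, the cGMP-dependent kinase (-1.51, 0.0171), were among the largest falls. Pln, phospholamban, was not well above background in BA+DMSO and was at least 1.68-fold lower (adjusted p = 0.0192), a bound taken from the dimmest signal above background on each array. Rhoa rose by 0.60 (adjusted p = 0.0216). Under rapamycin 10 were lowered and 1 raised, beside 22.9% and 19.8% of all genes, led by Prkg1 (-2.17, adjusted p = 0.00188), Kcnma1 (-1.84, 0.00427), Atp2a2 (-1.78, 0.00172) and Itpr1 (-1.65, 0.00062), a calcium release channel.

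In the list for transcription of contractile genes, the challenge lowered 7 of 16 and raised 0, beside 11.0% of all genes called lower, with a median of -0.44. Srf itself fell by 1.66 (adjusted p = 0.00232), and Mef2c (-1.18, 0.0333) and Mef2a (-0.98, 0.0384) fell too. Klf4, a repressor of contractile genes, differed by -0.13 (SE 0.31, adjusted p = 0.79), which was chosen for mention after its value was seen. Under rapamycin 7 were lowered and 1 raised, beside 22.9% and 19.8% of all genes. Among them were Mef2c (-1.67, adjusted p = 0.00431), Srf (-1.54, 0.00199) and Elk1, a ternary complex factor of SRF, which was higher (1.52, 0.00819). Elk1 is, with Tagln, among the 65 brightest genes (DMSO intensity 198000), whose median in this comparison was 0.86.

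Neither rapamycin comparison nor the interaction had a called gene in these 3 lists (0 by limma). The largest differences under challenge were Des (-0.77, adjusted p = 0.319), Svil (-0.54, 0.213) and Lpp (-0.54, 0.343) in the first list. In the second they were Prkg1 (-0.90, 0.221) and Ppp1r12b (0.82, 0.316), leaving out Pln, which was not well above background in either group. In the third they were Tcf21 (-1.46, 0.146) and Mef2c (-0.69, 0.272). For rapamycin alone they were Pdlim5 (0.57) and Cnn3 (0.30), Atp2a2 (-0.28) and Prkg1 (-0.23), and Klf5 (0.67), with an adjusted p of 1 each. For the interaction they were Des (-0.73, adjusted p = 0.738) and Pdlim5 (-0.70, 0.737), Prkg1 (-0.66, 0.737) and Ppp1r12b (0.63, 0.758), and Tcf21 (-1.62, 0.737) and Elk1 (0.74, 0.737). Pln, in the second list, had a larger interaction value (1.13, 0.737), but was not well above background in either challenged group.

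Markers of other cells moved with the challenge. The list of smooth muscle and pericyte markers that are not contractile had 5 of 8 genes called lower, where 11.0% of all genes were: Rgs5 (-2.58, adjusted p = 0.00192), Notch3 (-1.70, 0.00562), Itga8 (-1.57, 0.00755), Heyl (-1.34, 0.00333) and Mcam (-1.07, 0.0191). The other 3 genes were not called, with Pdgfrb at -0.28, Npnt at 0.23 and Cspg4 at 0.43, and Cspg4 was called higher under rapamycin (0.79, adjusted p = 0.0355). The list's summed scaled signal was 413 to 456 in DMSO, 356 to 401 in rapamycin, and lower under challenge, at 160 to 299 (BA+DMSO) and 190 to 200 (BA+rapamycin). Itga8 made 20.4% to 61.3% of that sum, and without it the sums were 166 to 190, 145 to 168, 103 to 168 and 139 to 159 in the same order, so that DMSO and BA+DMSO overlapped. Beside 10.4% of all genes called higher, macrophage markers rose in 7 of 8, with sums of 111 to 141, 121 to 145, 190 to 492 and 379 to 506 in the same order. Fibroblast markers rose in 3 of 8, with sums of 762 to 1070, 988 to 1020, 1090 to 1870 and 1760 to 2090. Dividing-cell markers rose in 5 of 5, with sums of 1.24 to 1.39, 0.598 to 0.699, 11.6 to 56.2 and at most 13.6. No defining marker of these 4 lists was below background on all arrays, which does not show that each was above it in DMSO. Among dividing-cell markers, DMSO intensities were 4.7 for Cdk1, 8.83 for Top2a, 20.5 for Ccnb1, 134 for Mki67 and 167 for Birc5. A gene so dim in DMSO can be tested through the challenged groups alone, so the rise of these markers is a description.

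Further lists moved less evenly. Beside the same 10.4% of all genes, erythroid markers rose in 3 of 3, endothelial in 3 of 7, lymphocyte in 2 of 3 tested, neutrophil in 1 of 4 and adipocyte in 1 of 6, and striated muscle in 0 of 7. The erythroid sums were 18 to 84.0, 80.3 to 186, 114 to 233 and 308 to 350 in the same order of groups. BA+DMSO mouse 2, which was high for the contractile genes, had the highest summed signal of its group for the members (6520 against 3250 and 3650). Its macrophage sum was also the highest (492 against 384 and 190), but Itgam, which was not called (1.13, adjusted p = 0.0906), made 48.4% to 86.7% of that sum, and without Itgam mouse 2 was the lowest (65.4 against 155 and 98.1). The neutrophil sum was nearly all Csf3r (96.1% to 99.7%), which was not called either (0.44, adjusted p = 0.444), and is not read further. Mouse 2 had the lowest sum for dividing-cell markers (11.6 against 56.2 and 32.8) and erythroid markers (114 against 156 and 233). It had the highest for adipocyte (65.8 against 37 and 21), endothelial (102 against 89.2 and 81) and lymphocyte markers (2.96 against 2.71 and 1.8). Cd3e made 61.1% to 80.6% of the lymphocyte sum, and without it mouse 2 was not the highest (0.573 against 1.05 and 0.538). Mouse 2 stayed the highest for adipocyte markers without Fabp4 (22.7 against 10.6 and 4.85) and endothelial markers without Vwf (38.7 against 30 and 22). Its striated muscle sum lay between the others (49.5 against 19.3 and 64.3), but was the highest without Acta1 (29.3 against 2.21 and 2.5). Its smooth muscle and pericyte sum of 237 lay between the 160 and 299 of the others, but without Itga8 it was the highest (168 against 103 and 143), as for the members. The part of these cells in the falls of Synpo2 and Lmod1 was not tested. For rapamycin under challenge 0 markers of all 10 lists were called.

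**Figure D5:**
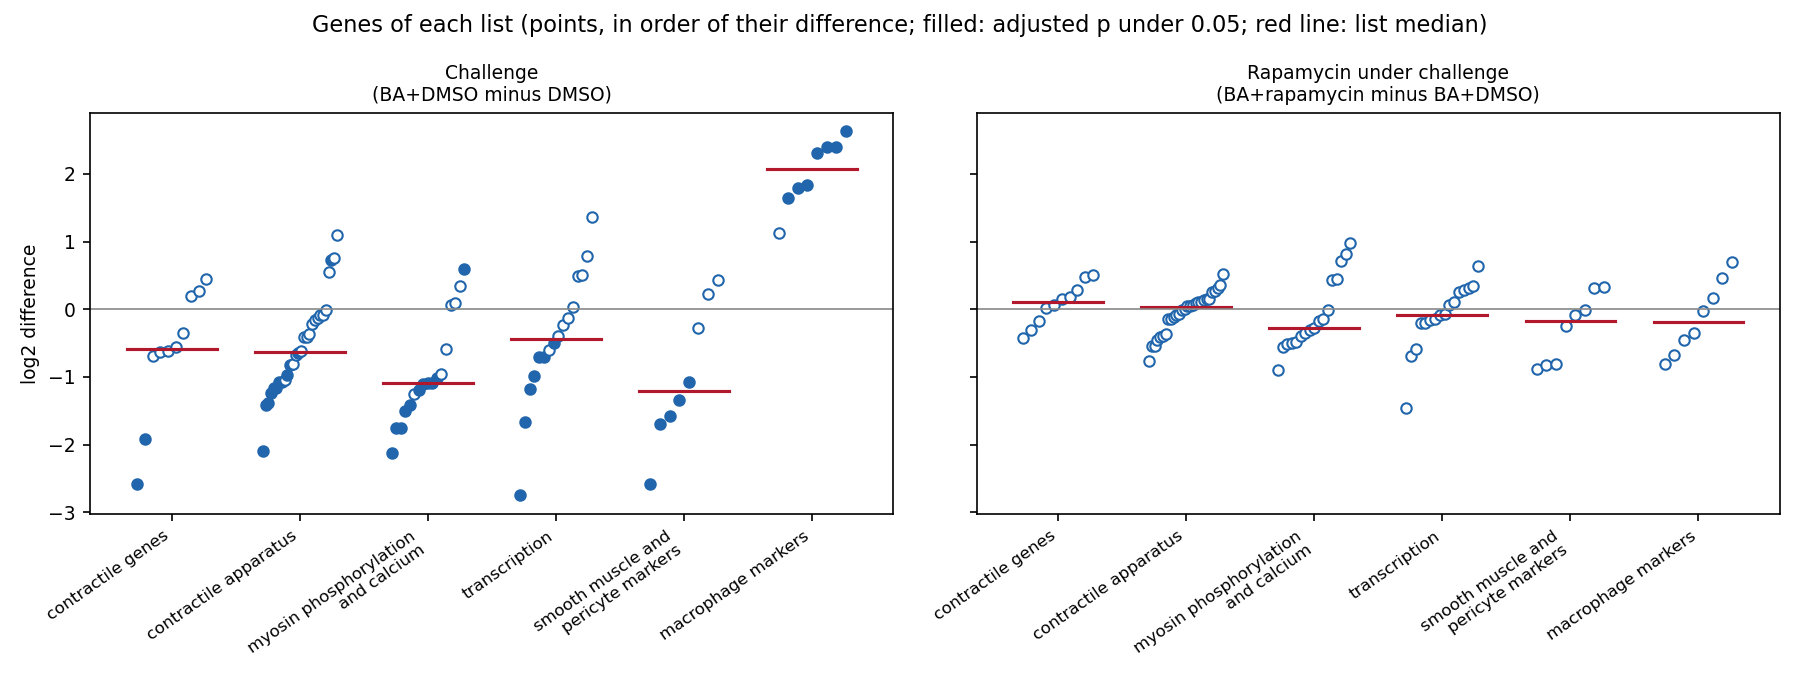
Log2 differences of the genes in 6 lists for the challenge (left) and for rapamycin under challenge (right), with 1 point per gene in order of its difference, filled where the adjusted p was under 0.05, and a red line at the list median. Medians on the left are -0.58 for the contractile genes, -0.63, -1.09 and -0.44 for the 3 related lists, -1.20 for smooth muscle and pericyte markers and 2.07 for macrophage markers, and no point is filled on the right.

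The genes most like the members were sought by the correlation over the 12 arrays between a gene and the mean of the 10 centred members, among 15620 genes well above background on all arrays. The highest were Gm4907 (0.971), Tacc2 (0.960), Actg2 (0.959), Itih4 (0.958), Pbxip1 (0.956), Rngtt (0.956), Myom1 (0.956) and Rnf167 (0.952). Actg2, gamma smooth muscle actin, was the one among them that also stood in the contractile apparatus list. It differed by -0.81 under challenge (adjusted p = 0.0734) and by 0.11 for rapamycin under challenge. The lowest were Dse (-0.969), Nsg1 (-0.965), Nid1 (-0.952) and Gm1673 (-0.952). Each array enters every coefficient with the same scaling, so this is a description.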

How the data were processed

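RNA from an aortic segment of 12 mice, taken above the right renal artery (4 groups of 3, taken from the treatment labels) was hybridized by the authors, 1 colour (Cy3), to Agilent mouse arrays. Per the file headers, the deposited intensity values are processed signals from Feature Extraction 10.7.1.1, background-subtracted within each array, and not normalized between arrays. The submitters' processing notes name version 9.5.1.1. The deposited flags for each spot mark signals well above background, saturated or outlying. The authors' value table holds intensity on a linear scale, normalized between arrays by a method not given in the sources used here, and served as an alternative.

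Outlier and control spots were left out, spots of 1 probe were averaged, and 6 probes without a value on some array were dropped. The log2 processed signal minus the 75th percentile of the array was fitted with limma 3.58.1 in R 4.3.3 over all 12 arrays. The filter kept 27801 probes, those for which some group had, on each of its arrays, a share of 0.5 or more of the spots flagged well above background. P-values, two-sided, were adjusted by Benjamini-Hochberg over them, and an adjusted p under 0.05 was a call. A gene was represented by its tested probe with the highest mean. The scripts were tested on simulated data.

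All members were named, and from each related list the genes with the largest differences, with called genes first. A gene of a related list is not reported here by name. The members and lists were chosen with earlier results of these data known. Alternatives covered normalization, background, filter, slide, a date-like number in the sample titles, probes, single arrays and the methods' rule, an unadjusted p under 0.01 with a fold change over 4 or under 0.25. Gene names are those of the array and probe positions are on mm9. Promoters came from RefSeq (GRCm38.p6). The number of arrays limits the precision, and no read depth exists for them.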

Additional observations from a re-analysis of the deposited data

How the results depend on the processing

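No paired analysis was possible because the replicate numbers here only follow the order of the samples and pair no mice. The date-like number in the titles links some mice across groups, but not 1 to 1, and was fitted as a random block instead (within-block correlation 0.496). Among the member calls it changed only that of Myocd in BA+rapamycin against rapamycin (-0.75, adjusted p = 0.126), and it moved the genes called in BA+rapamycin against BA+DMSO from 61 to 338. Synpo2 stayed lower in BA+DMSO with a call in 24 of 25 alternatives (-2.96 to -1.83) and Lmod1 in 23 of 25 (-2.20 to -1.50). Against rapamycin, Synpo2 kept its call in 26 of 26 (-3.18 to -1.78), Lmod1 in 24 of 26 (-1.95 to -1.56), Tagln in 19 and Myocd in 8. Members called in BA+DMSO against DMSO numbered 2, but 0 with slide as a fixed block and 1 by the methods' rule. They numbered 3, with Smtn also lower, after quantile normalization (-1.02, adjusted p = 0.0295), in the deposited value table (-0.99, 0.0288) and after normexp background correction (-0.84, 0.0434). Members called in BA+rapamycin against rapamycin numbered 4, but 7 when only these groups were fitted, 6 after quantile normalization, in the deposited table and after normexp, and 1 by the methods' rule. Among alternatives chosen after seeing the data, the arrays of slide 2 alone gave 2 and array brightness as a covariate gave 1. Over these alternatives 1088 to 12476 of 20026 genes were called. The sets of 6 differed. After quantile normalization and in the deposited table they were Acta2, Cnn1, Smtn, Lmod1, Myl9 and Synpo2, all lower. After normexp Tagln was higher (0.61, adjusted p = 0.0142), and Smtn, Lmod1, Mylk, Myocd and Synpo2 were lower.

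Leaving out single arrays gave 2 to 6 members called for BA+DMSO against DMSO, 0 to 4 for BA+rapamycin against BA+DMSO, 0 to 0 for rapamycin against DMSO, 2 to 6 for BA+rapamycin against rapamycin and 0 to 2 for the interaction. The upper ends came without BA+DMSO mouse 2, and for BA+rapamycin against rapamycin also without BA+DMSO mouse 1. In that comparison Acta2 reversed to -0.64 after quantile normalization and -0.62 in the deposited value table, Myl9 to -0.80 and -0.77, and Tagln to -0.19 and -0.19, and to -0.02 with the brightness covariate. The cause was not tested. With the mean of all its probes, Smtn differed by 0.23 in BA+DMSO against DMSO.

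Genes called over the array ranged over the other alternatives from 12 to 7578 (4285 as reported) for BA+DMSO against DMSO, from 0 to 352 (61) for BA+rapamycin against BA+DMSO and from 1088 to 12476 (8552) for BA+rapamycin against rapamycin. They ranged from 0 to 6 (1) for rapamycin against DMSO and from 0 to 43 (0) for the interaction. Without single arrays they ran from 1577 to 7898, 23 to 8213, 4842 to 11670, 0 to 4 and 0 to 2243 in the same order. With 3 mice a group, all intervals are wide, and no probe of a member was below background.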
